A study of Mus musculus with 7 samples.

Results

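The genes described here encode semaphorins, the plexins and neuropilins that bind them, ephrins, and the Eph receptors that bind ephrins. Members were chosen by symbol: Sema with a number and a letter, Plxn with a letter and a number, Nrp1, Nrp2, and Efna, Efnb, Epha or Ephb with a number. A gene was read through probe sets that carry exactly 1 gene symbol, and where it had several, through the probe set that read highest on average over the 7 arrays. This gave 52 genes of the 19938 that could be read in this way. They are 28 ligand genes (7 class 3 semaphorins, 13 semaphorins of classes 4 to 7, 5 ephrin-A and 3 ephrin-B genes) and 24 receptor genes (2 neuropilins, 9 plexins, 9 EphA and 4 EphB genes). Of the 53 genes of the RefSeq gene table that the rule names, Ephb2 was not analysed here.

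Messenger RNA was measured on 7 Affymetrix whole transcript arrays, each loaded with RNA of 1 mouse culture. Mouse embryonic fibroblasts (MEFs), taken from 129/OG2 mice at 13.5 days after conception, were grown in FBS (1 array) or in the medium named iCD1 (1 array). Induced pluripotent stem (iPS) lines O4-1, O4-2 and O4-4, described as MEFs infected by Oct4, were grown in KSR (3 arrays), and O4-1 also in N2B27(2i) (1 array), where 2i stands for inhibition of the kinases MEK and GSK3. OG2 embryonic stem cells (ES cells) in N2B27(2i) gave the last array. The 5 iPS and ES arrays are called pluripotent here. The labels disagree in part: every description speaks of iPS cells early after infection, the source field of the ES cells says fibroblasts, and that of the iPS lines names iCD1. Groups were therefore taken from titles and growth conditions. MEF and pluripotent arrays share no medium and no line, so that cell type and medium cannot be told apart between them. In RNA of whole cultures, fewer cells expressing a gene and less RNA per cell cannot be told apart either.

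Semaphorins are guidance ligands. Class 3 semaphorins are secreted and mostly act through a complex of a neuropilin, which binds the ligand, and a plexin A, which carries the signal into the cell. Semaphorins of classes 4 to 7 are held at the membrane and mostly bind plexins directly. Ephrins are ligands tethered to the cell surface, ephrin-A by a lipid anchor and ephrin-B by a transmembrane segment, and they signal on contact through Eph receptor tyrosine kinases. Both systems are best known from axon guidance and vessel growth, and fibroblasts and other mesenchymal cells use them to adhere, repel and sort.

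The upstream sequences of the members differed in composition. Upstream windows were read from the RefSeq promoter table (GRCm38.p6) for 46 of the 52 members. A window is the 250 bases before a listed transcription start, and of several starts (11 members) the most upstream was used. Shown here are windows of members that passed the test of pluripotent against MEF arrays described below. They had the largest falls (Sema3a, Nrp1 and Nrp2) and the largest rises (Sema4d, Epha2 and Sema4b) among such members with a window. Capitals mark matches on either strand to the GC box GGGCGG, bound by Sp factors, the AP-1 site TGACTCA, the TEAD site CATTCC and the octamer ATGCAAAT, bound by Oct4. Overlapping matches were counted separately. The listed starts of Sema3a, Nrp1 and Sema4d lie inside the span that RefSeq gives the gene. Nrp1, on the plus strand at chr8:128358823-128359072, held 1 GC box. Nrp2, plus strand, chr1:62703067-62703316, held 5 GC boxes and 32 CpG dinucleotides. Sema3a, plus strand, chr5:13396534-13396783, held no match and 2 CpGs. Sema4d, minus strand, chr13:51756684-51756933, held no match and 1 CpG. Epha2, plus strand, chr4:141300971-141301220, held 1 GC box and 2 TEAD matches. Sema4b, plus strand, chr7:80186620-80186869, held 2 GC boxes.
Sema3a: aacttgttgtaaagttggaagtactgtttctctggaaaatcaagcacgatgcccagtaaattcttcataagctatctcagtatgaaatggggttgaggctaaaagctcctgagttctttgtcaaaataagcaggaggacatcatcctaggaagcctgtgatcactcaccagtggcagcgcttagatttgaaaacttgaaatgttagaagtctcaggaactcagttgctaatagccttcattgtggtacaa
Nrp1: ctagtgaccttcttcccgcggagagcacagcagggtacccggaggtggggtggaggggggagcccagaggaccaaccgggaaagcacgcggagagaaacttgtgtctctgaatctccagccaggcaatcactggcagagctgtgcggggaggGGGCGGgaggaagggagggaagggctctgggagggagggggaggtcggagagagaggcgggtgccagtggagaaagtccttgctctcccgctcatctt
Nrp2: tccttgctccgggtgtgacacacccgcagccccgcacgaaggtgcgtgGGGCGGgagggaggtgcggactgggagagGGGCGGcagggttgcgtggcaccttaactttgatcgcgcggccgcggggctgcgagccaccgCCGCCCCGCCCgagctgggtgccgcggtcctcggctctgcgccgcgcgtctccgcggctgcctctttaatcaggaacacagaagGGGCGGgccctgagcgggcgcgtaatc
Sema4d: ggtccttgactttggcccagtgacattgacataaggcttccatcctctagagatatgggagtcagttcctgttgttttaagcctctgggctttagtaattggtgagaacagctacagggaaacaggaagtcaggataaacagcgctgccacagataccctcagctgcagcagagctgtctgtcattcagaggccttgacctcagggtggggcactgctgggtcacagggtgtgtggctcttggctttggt
Epha2: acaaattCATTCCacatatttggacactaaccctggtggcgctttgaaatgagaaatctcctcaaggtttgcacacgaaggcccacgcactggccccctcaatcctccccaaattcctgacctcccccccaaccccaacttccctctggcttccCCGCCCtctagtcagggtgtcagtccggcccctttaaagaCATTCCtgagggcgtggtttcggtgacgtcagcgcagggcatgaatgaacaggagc
Sema4b: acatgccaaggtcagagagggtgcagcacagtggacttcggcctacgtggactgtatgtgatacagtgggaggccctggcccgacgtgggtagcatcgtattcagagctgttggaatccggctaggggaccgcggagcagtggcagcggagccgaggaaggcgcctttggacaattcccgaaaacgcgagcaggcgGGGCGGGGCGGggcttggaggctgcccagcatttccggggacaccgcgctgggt

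Most member windows were rich in G and C. Their median GC content was 64.4%, with a median of 16 CpGs, beside 56.4% and 11 CpGs over the 15614 tested genes with a window. A GC box was found in 36 of the 46 member windows (78.3%) and in 46% of all windows. Among members that were lower in pluripotent cells 19 of 23 had it (82.6%), among those not called 15 of 19 (78.9%) and among those that were higher 2 of 4 (50%). A GC box was therefore about as frequent among members that fell as among those that were not called. The AP-1 letters were found in 1 member window (2.17%, beside 3.93% of all windows), the TEAD letters in 6 (13%, beside 11.4%) and the octamer in 0 (beside 1.61%). A match is a description of the letters only, and no match says nothing about binding of the factor.

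The fibroblast and pluripotent labels were checked first. Of 15 fibroblast markers 13 were lower in the pluripotent arrays and 0 higher (limma, 2-group fit, adjusted p under 0.05 over all genes), and all 12 of 12 pluripotency markers were higher. The mean log2 value of the fibroblast markers was 9.16 and 9.83 on the MEF arrays and between 6.23 and 7.13 on the pluripotent arrays, highest in O4-4. Markers of other cell types that a culture could hold differed less on average. Endothelial markers had means of 4.34 and 4.32 on the MEF arrays and 4.74 to 4.89 on the pluripotent arrays. Of these 10 markers 1 was lower (Erg, difference -0.48 ± 0.13) and 3 were higher. The higher ones were Pecam1, which pluripotent cells also carry (3.86 ± 0.32), Tek (1.38 ± 0.14) and Egfl7 (0.8 ± 0.15). Macrophage markers had means of 4.46 and 4.66 against 4.31 to 4.59, with 3 of 9 lower and 1 higher. Neural and glial markers had means of 4.93 and 4.75 against 5.06 to 5.25, with 0 of 10 lower and 1 higher. The part of these markers in the member differences was not tested. No detection values come with the arrays, so low values are not separated from background.

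Guidance genes were lower in pluripotent cells far more often than higher. To compare ligand and receptor sets between both cell states, the 5 pluripotent arrays were set against the 2 MEF arrays with limma, with Benjamini-Hochberg adjustment over all 19938 genes and a threshold of 0.05. Of the 52 members 26 were lower, 4 were higher and 22 did not pass. Over all genes 17.5% were lower and 15.6% higher in this comparison. The median difference of the members was -0.59 on the log2 scale, beside 0.02 over all genes. Of the members that fell, 20 fell at least 2-fold and 10 at least 4-fold, while 2 of those that rose did so at least 2-fold. In a fit of the 5 groups of cell and medium, 7 of the called members no longer passed (Sema3e, Epha7, Plxna1, Plxna3, Ephb4, Efna1 and Epha2), with the same direction and limma adjusted p between 0.0544 and 0.165. Both MEF arrays lay above all 5 pluripotent arrays for 27 members and below all of them for 8, beside 22% and 21.9% of all genes. Ligands and receptors did not separate as sets. Among ligands 13 of 28 were lower and 3 higher, with a median difference of -0.53, and among receptors 13 of 24 were lower and 1 higher, with a median of -0.60.

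**Figure D1:**
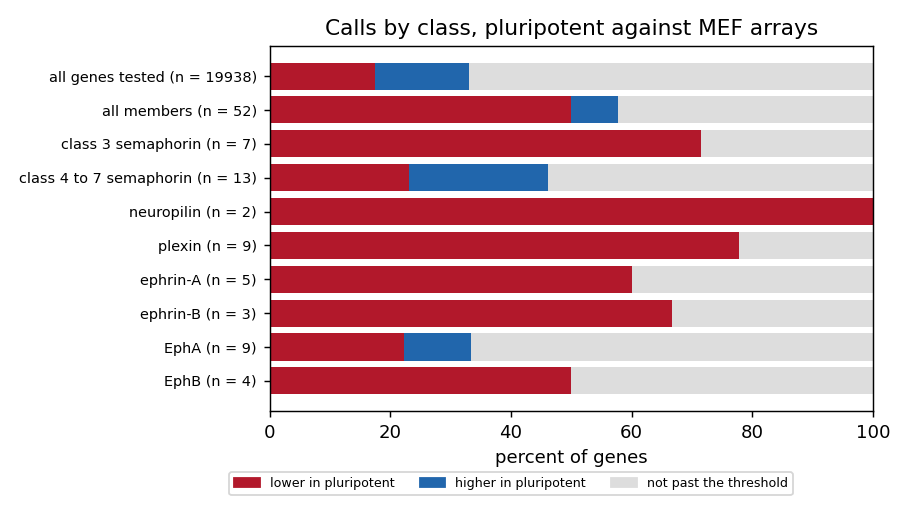
Share of genes, in percent, that were lower (red), higher (blue) or not past the threshold (grey) in 5 pluripotent against 2 MEF arrays, for all genes tested, all members and each class of ligand or receptor (limma, adjusted p under 0.05). Plexins (7 of 9) and neuropilins (2 of 2) had the highest shares of lower genes, and higher genes occurred among semaphorins of classes 4 to 7 (3 of 13) and EphA receptors (1 of 9).

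Class 3 semaphorins, the secreted ligands, were mostly higher in MEFs. Of 7 genes 5 were lower in pluripotent cells (Sema3a, Sema3c, Sema3d, Sema3e and Sema3f) and 0 higher, beside 17.5% and 15.6% of all genes. Their median difference was -1.67. Sema3a, the founding secreted repellent of axons, read 8.90 in FBS and 8.38 in iCD1, and 4.53, 4.80 and 4.30 in the KSR lines O4-1, O4-2 and O4-4, 3.80 in iPS cells in 2i and 3.79 in ES cells. It fell by 4.39 ± 0.30 on the log2 scale (SE; limma adjusted p = 3.69e-05), or 21.0-fold, the largest difference of the 52 members. The groups did not overlap, and both 2i arrays were the lowest.

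Sema3d, which guides neural crest and vascular cells, read 5.77 and 5.85 in the MEFs in FBS and iCD1, 3.48, 3.43 and 3.57 in the KSR lines, 2.96 in iPS cells in 2i and 3.47 in ES cells. It fell by 2.42 ± 0.17 (limma adjusted p = 4.03e-05). The MEF arrays lay within 0.08 of each other and well above every pluripotent array. Sema3c, a ligand best known from the cardiac outflow tract, read 7.68 and 8.03 in the MEFs, 4.88, 4.91 and 6.46 in the KSR lines, 4.03 in iPS cells in 2i and 5.31 in ES cells. It fell by 2.74 ± 0.53 (limma adjusted p = 0.00474), and the adjusted p was 0.0583 without the MEF array in iCD1. The pluripotent arrays were widely spread, with O4-4 the highest. Of the 15 fibroblast markers 9 read highest of the KSR lines in O4-4 (Col1a1, a chain of fibrillar collagen, at 10.32 beside 9.17 in O4-1 and 9.21 in O4-2) and 4 read lowest there (Thy1, Pdgfra, S100a4 and Twist2). Their mean was 7.13 in O4-4, 6.68 in O4-1 and 6.64 in O4-2. The part of fibroblast RNA in these Sema3c values was not tested.

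The other class 3 genes had smaller differences. Sema3e, whose receptor PlexinD1 needs no neuropilin, fell by 1.67 ± 0.49 (limma adjusted p = 0.0299), a call that was lost in 8 of its 12 alternative fits, with adjusted p up to 0.175. Sema3f, the preferred ligand of Nrp2, fell by 1.41 ± 0.12 (limma adjusted p = 0.000108). Sema3b differed by -0.29 ± 0.19 and Sema3g by 0.01 ± 0.14, and neither passed the test.

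Both neuropilins fell. Nrp1, the coreceptor of Sema3a and of VEGF-A, read 9.40 in FBS and 8.17 in iCD1, 4.65, 4.78 and 4.82 in the KSR lines, 4.17 in iPS cells in 2i and 4.55 in ES cells. It fell by 4.19 ± 0.31 (limma adjusted p = 5.13e-05), or 18.3-fold. Nrp2, the coreceptor of Sema3f and Sema3c, read 7.55 and 8.45 in the MEFs, 4.93, 4.91 and 5.00 in the KSR lines, 5.18 in iPS cells in 2i and 4.98 in ES cells. It fell by 3.0 ± 0.22 (limma adjusted p = 4.73e-05), or 8.0-fold. The MEF arrays were far above all pluripotent arrays for both genes, but in opposite order: Nrp1 was higher in FBS and Nrp2 higher in iCD1.

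Of the 9 plexins, the signalling receptors, 7 fell and 0 rose, beside 17.5% and 15.6% of all genes. Their median difference was -1.27. Plxnb2, a receptor of class 4 semaphorins, read 9.18 and 9.69 in the MEFs, 6.85, 7.33 and 6.75 in the KSR lines, 7.14 in iPS cells in 2i and 7.68 in ES cells. It fell by 2.29 ± 0.26 (limma adjusted p = 0.000352). The MEF arrays lay above all others, and the ES array was the highest of the pluripotent ones. Plxnd1, the receptor of Sema3e, fell by 1.56 ± 0.11 (limma adjusted p = 4.36e-05). All 4 class A plexins, the partners of the neuropilins, passed the test. Plxna2 fell by 1.93 ± 0.27, Plxna4 fell by 1.27 ± 0.15, Plxna1 fell by 0.77 ± 0.17 and Plxna3 fell by 0.73 ± 0.18 (limma adjusted p between 0.000359 and 0.013). Without the MEF array in iCD1, Plxna3 had an adjusted p of 0.0778. Without the one in FBS, Plxna1 had 0.0771 and Plxna3 0.0778. Plxnb1, the main receptor of Sema4d, differed by 0.22 ± 0.18 and Plxnb3 by -0.14 ± 0.11, and neither passed.

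Plxnc1, the receptor of Sema7a, differed between the MEF arrays. It read 4.46 in FBS and 6.02 in iCD1, 3.93, 3.91 and 3.62 in the KSR lines, 3.81 in iPS cells in 2i and 3.40 in ES cells. It fell by 1.5 ± 0.36 (limma adjusted p = 0.013). Without the iCD1 array the difference was -0.72, with an adjusted p of 0.0627, and without the FBS array it was -2.28. The FBS array lay only a little above the highest pluripotent array.

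**Figure D2:**
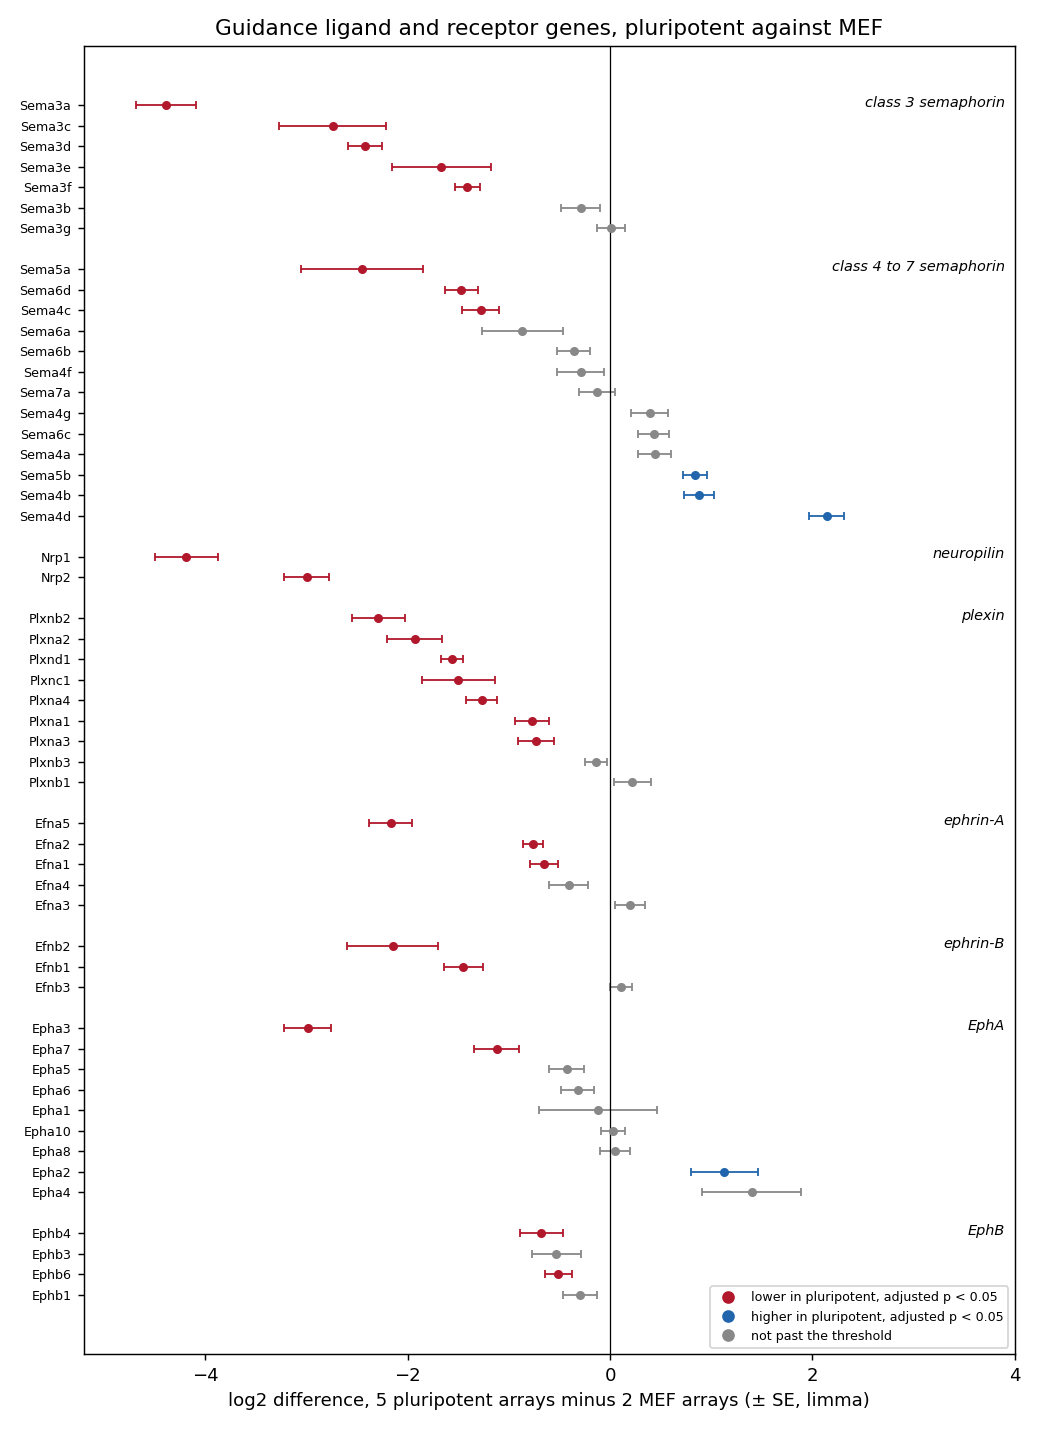
Difference in log2 expression between 5 pluripotent and 2 MEF arrays for each of the 52 members, grouped by class, with the standard error from limma as bars. Red points were lower and blue points higher at an adjusted p under 0.05, and grey points did not pass; Sema3a (-4.39) and Nrp1 (-4.19) lie farthest left and Sema4d (2.14) farthest right.

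Of the 13 membrane semaphorins of classes 4 to 7, 3 fell (Sema5a, Sema6d and Sema4c), 3 rose (Sema4d, Sema4b and Sema5b) and 7 did not pass, with a median difference of -0.13. These counts are near the shares over all genes (17.5% lower and 15.6% higher), and nothing is read from them about the class. Sema5a, which carries thrombospondin repeats beside its semaphorin domain, read 5.98 in FBS and 8.11 in iCD1, 4.27, 4.33 and 4.50 in the KSR lines, 4.12 in iPS cells in 2i and 5.75 in ES cells. It fell by 2.45 ± 0.60 (limma adjusted p = 0.0138). Without the iCD1 array the difference was -1.39 and the adjusted p 0.151. The FBS array lay close to the ES array. Sema6d, a transmembrane semaphorin of heart development, fell by 1.47 ± 0.16 (limma adjusted p = 0.000297). Sema4c, a ligand of Plxnb2, fell by 1.28 ± 0.18 (limma adjusted p = 0.000955).

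Sema4d, read through its probe set with the highest mean, had the largest rise among the members that passed. This gene encodes CD100, a membrane ligand of PlexinB1 that can be shed. It read 4.42 and 4.20 in the MEFs, 6.68, 6.33 and 6.71 in the KSR lines, 6.22 in iPS cells in 2i and 6.32 in ES cells. It was higher by 2.14 ± 0.17 (limma adjusted p = 6.51e-05), or 4.41-fold, and the groups did not overlap. Its probe sets disagreed. A further Sema4d probe set read 4.48 in FBS, 4.26 in iCD1 and between 4.16 and 4.61 on the pluripotent arrays. With the mean of both probe sets the difference was 1.13, the same as for Epha2 under that setting, so that the rank was lost.

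Sema4b, a class 4 semaphorin found at synapses, read 6.51 and 6.75 in the MEFs, 7.68, 7.50 and 7.67 in the KSR lines, 7.21 in iPS cells in 2i and 7.49 in ES cells. It rose by 0.88 ± 0.15 (limma adjusted p = 0.00275), with the MEF arrays below all others. Sema5b, the relative of Sema5a, read 4.73 and 4.46 in the MEFs, 5.42, 5.36 and 5.31 in the KSR lines, 5.52 in iPS cells in 2i and 5.56 in ES cells. It rose by 0.84 ± 0.12 (limma adjusted p = 0.00119). The groups did not overlap, and the pair Sema5a and Sema5b thus differed in direction. Sema4a, Sema4g and Sema6c also read higher on every pluripotent array than on either MEF array, with differences of 0.44, 0.39 and 0.43 that did not pass (limma adjusted p = 0.0614, 0.136 and 0.0623).

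**Figure D3:**
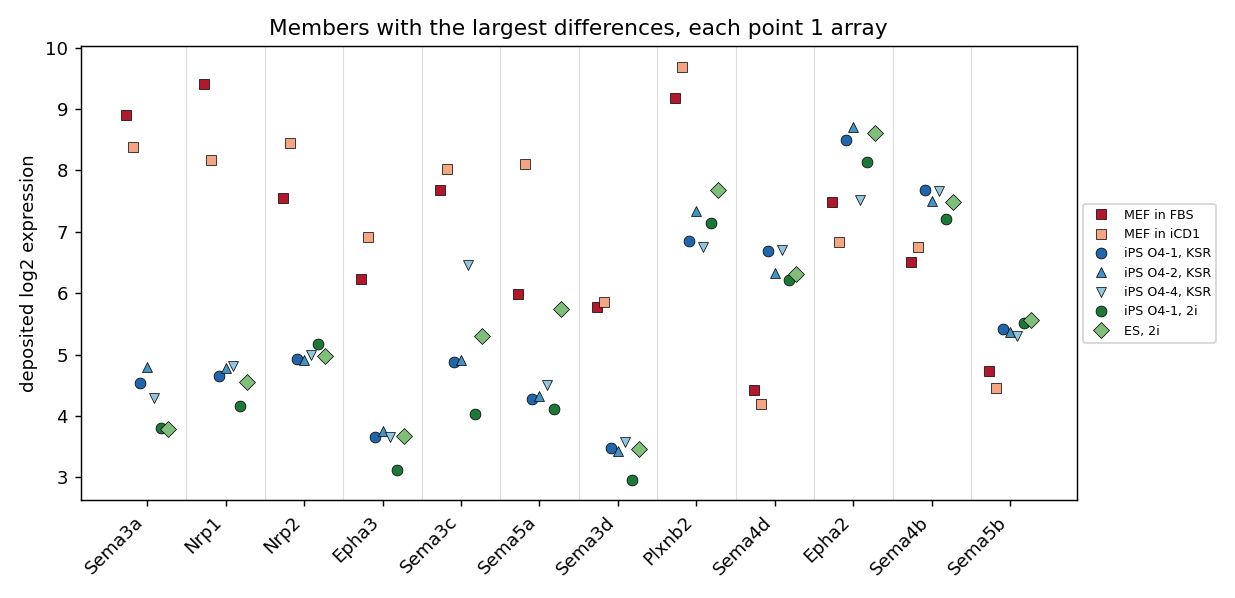
Deposited log2 expression of the 8 called members with the largest falls and the 4 that rose, with each point 1 array (squares MEFs, circles and triangles iPS lines, diamonds ES cells). MEF squares lie above all other points for the first 8 genes, although for Sema5a the FBS array (5.98) is close to the ES array (5.75), and below them for the last 4, although for Epha2 the FBS array (7.48) is close to O4-4 (7.52).

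Ephrin ligands fell or did not pass. Of 5 ephrin-A genes 3 fell, with a median difference of -0.65, and of 3 ephrin-B genes 2 fell, with a median of -1.45. Of all genes 17.5% fell. Efna5, the classical ligand of topographic retinal mapping, fell by 2.17 ± 0.21 (limma adjusted p = 0.000161). Efnb2, the arterial ephrin, fell by 2.15 ± 0.45 (limma adjusted p = 0.00671; 0.0668 without the MEF array in iCD1). Efnb1, the ephrin of craniofacial and skeletal boundaries, fell by 1.45 ± 0.19 (limma adjusted p = 0.000688). Efna2 fell by 0.76 ± 0.10 and Efna1 by 0.65 ± 0.14 (limma adjusted p = 0.000667 and 0.00703; Efna1 0.0568 without the MEF array in iCD1). Efna3 differed by 0.20, Efna4 by -0.41 and Efnb3 by 0.11, and none of them passed. Both MEF arrays lay above all pluripotent arrays for each of the 5 ephrins that fell.

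Of the 9 EphA receptor genes 2 fell, 1 rose and 6 did not pass (median difference -0.12), which is near the shares over all genes (17.5% lower and 15.6% higher). Of 4 EphB genes 2 fell and 2 did not pass (median -0.52). Epha3, a receptor of Efna5 that is expressed in mesenchyme, read 6.23 and 6.91 in the MEFs, 3.66, 3.75 and 3.66 in the KSR lines, 3.12 in iPS cells in 2i and 3.67 in ES cells. It fell by 2.99 ± 0.23 (limma adjusted p = 5.42e-05), or 7.94-fold. The groups were far apart. Its ligand Efna5 also fell, while 6 of the 9 EphA genes did not pass and Epha2 rose. Epha7 fell by 1.12 ± 0.22 (limma adjusted p = 0.00482). Ephb4, the venous receptor of Efnb2, fell by 0.68 ± 0.21 (limma adjusted p = 0.0367), a call lost in 8 of its 13 alternative fits with adjusted p up to 0.272. Ephb6, whose kinase domain is inactive, fell by 0.51 ± 0.13 (limma adjusted p = 0.0163; 0.136 without the MEF array in iCD1).

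Epha2 was the Eph receptor that rose. Epha2 is common on epithelial cells and is also present on mouse pluripotent cells. It read 7.48 and 6.84 in the MEFs, 8.49, 8.70 and 7.52 in the KSR lines, 8.13 in iPS cells in 2i and 8.61 in ES cells. It rose by 1.13 ± 0.33 (limma adjusted p = 0.0282), or 2.19-fold. The call rested on several arrays: the adjusted p was 0.251 without the MEF array in iCD1 and between 0.0517 and 0.0614 without O4-1 in KSR, O4-1 in 2i, O4-2 or the ES array. O4-4 was nearly level with the MEFs in FBS. Epha4, a receptor that binds ephrins of both kinds, had the largest difference among members that did not pass, 1.40 ± 0.49 (limma adjusted p = 0.0586), and was higher on all 5 pluripotent arrays than on either MEF array.

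When the 3 KSR lines alone were set against the mean of both MEF arrays, in a fit of all 5 groups whose spread comes from those lines, 21 members were lower and 3 higher. Over all genes 14.3% were lower and 12.1% higher in this comparison. Both comparisons share the MEF arrays and the KSR lines. They called 22 members in common, 8 in the first alone (Sema3c, Efnb2, Sema3e, Epha7, Plxna1, Plxna3, Ephb4 and Epha2) and 2 in the second alone (Epha5 and Efna4, both lower). In the KSR lines Nrp1 fell by 4.04 ± 0.10, Sema3a fell by 4.09 ± 0.19, Nrp2 fell by 3.05 ± 0.09 and Epha3 fell by 2.88 ± 0.09 (each limma adjusted p = 0.00659). Sema4d was higher by 2.26 ± 0.16 (limma adjusted p = 0.00826), Sema4b by 0.99 ± 0.10 and Sema5b by 0.77 ± 0.09. These calls depended on single arrays. Without O4-1 in KSR, and likewise without O4-2, limma called 0 members and 0 genes, with 24 and 31 members at an unadjusted p under 0.05. Without O4-4, which likewise leaves 2 lines, it called 13 members lower and 3 higher. Without the MEF array in iCD1 it called 12 lower and 3 higher.

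The MEF media were compared through 1 array each, with no test, so that medium and culture cannot be told apart. In iCD1, 2 members read at least 2-fold higher than in FBS (Sema5a by 2.13 and Plxnc1 by 1.56 on the log2 scale) and 1 at least 2-fold lower (Nrp1, by -1.23). Over all genes 1.7% were at least 2-fold higher and 0.998% lower. Nrp2 was 0.90 higher and Efna4 0.77 higher in iCD1, and Epha3 0.68 higher. For 40 of the 52 members both MEF arrays lay within 0.5 of each other, Sema3d (0.08), Efnb2 (0.14) and Plxnd1 (0.25) among them. The mean of the fibroblast markers was 9.83 in iCD1 and 9.16 in FBS, with 9 of 15 higher in iCD1 and 6 lower. Lum (3.87 higher in iCD1) and Dcn (2.83 higher) differed the most. Of the 9 macrophage markers 4 read higher in iCD1 and 5 lower, with a median difference of -0.08. Lyz2 alone was at least 2-fold apart (6.83 in iCD1 and 4.99 in FBS). The part of all these markers in the differences between media was not tested.

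**Figure D4:**
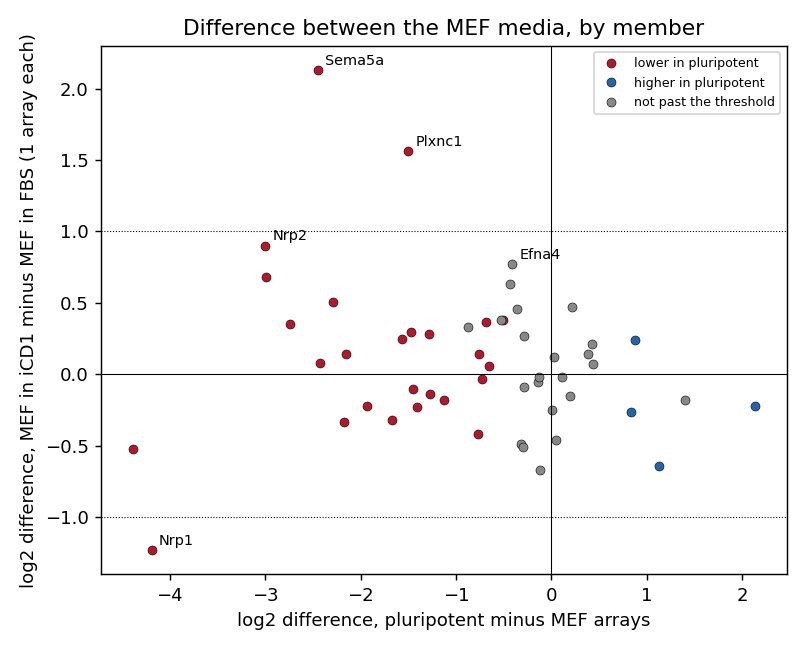
Difference between the MEF array in iCD1 and the one in FBS (vertical axis, log2, 1 array each) against the difference between pluripotent and MEF arrays (horizontal axis, log2), with each point 1 member. Dotted lines mark 2-fold; Sema5a (2.13) and Plxnc1 (1.56) lie above the upper line and Nrp1 (-1.23) below the lower, and the axes share the MEF arrays.

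Within the pluripotent arrays, each 2i group was compared with the KSR lines. For ES cells, cell type and medium change together in this comparison and cannot be told apart. Neither comparison gave a call. For iPS cells in 2i against the KSR lines limma called 0 members and 0% of all genes, with 6 members and 1339 genes at an unadjusted p under 0.05 and a lowest adjusted p of 0.727 among members. For ES cells in 2i against the KSR lines it called 0 members and 0% of all genes, with 5 members and 1743 genes at an unadjusted p under 0.05 and a lowest adjusted p of 0.571 among members. Each 2i group was 1 array. Line O4-1, the only one grown in both media, differed on the log2 scale by -1.24 in 2i against KSR for Efnb2 and by -1.37 for Epha1, a receptor of epithelial cells. These were the only members at least 2-fold apart in that line, 2 of 52, and over all genes 0.953% were at least 2-fold lower there. Sema5a was 1.39 higher in ES cells than in the KSR lines, and differed by -0.25 between iPS cells in 2i and those lines.

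ES and iPS cells in 2i, 1 array each, differed at least 2-fold for 2 members. Sema5a was 1.64 higher and Sema3c 1.28 higher in ES cells on the log2 scale, and 0 members were at least 2-fold lower. Over all genes 0.978% differed at least 2-fold in either direction. The labels name 129/OG2 and OG2 as genetic backgrounds, and the part of background in these differences was not tested. Of the 15 fibroblast markers 14 read higher in ES than in iPS cells in 2i, with means of 6.88 and 6.23, and the part of fibroblast RNA in this difference was not tested.

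The pluripotent arrays were not alike for all members. For 10 members their range was over 1 on the log2 scale, and the members with the largest SD, chosen after their values were seen, are described here. Epha1 read 5.86 in O4-1, 6.22 in O4-2 and 4.46 in O4-4 in KSR, 4.49 in O4-1 in 2i and 4.08 in ES cells, beside 5.48 and 4.81 in the MEFs. Epha4 read 6.77, 6.31 and 8.14 in the same KSR lines, 7.66 in iPS cells in 2i and 8.03 in ES cells. O4-4 was thus closer to both 2i arrays than to the other KSR lines for these receptors. Sema3e read 4.62, 5.74 and 3.80 in the KSR lines, 3.93 in iPS cells in 2i and 3.99 in ES cells, and Efnb2 6.52, 7.19, 5.83, 5.27 and 5.79 in the same order. Sema6a, a transmembrane semaphorin, read 5.42, 6.32, 4.93, 4.68 and 4.98, beside 5.98 and 6.31 in the MEFs, and did not pass (difference -0.87 ± 0.40, limma adjusted p = 0.137). O4-2 was the highest pluripotent array for Epha1, Sema3e, Efnb2 and Sema6a.

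**Figure D5:**
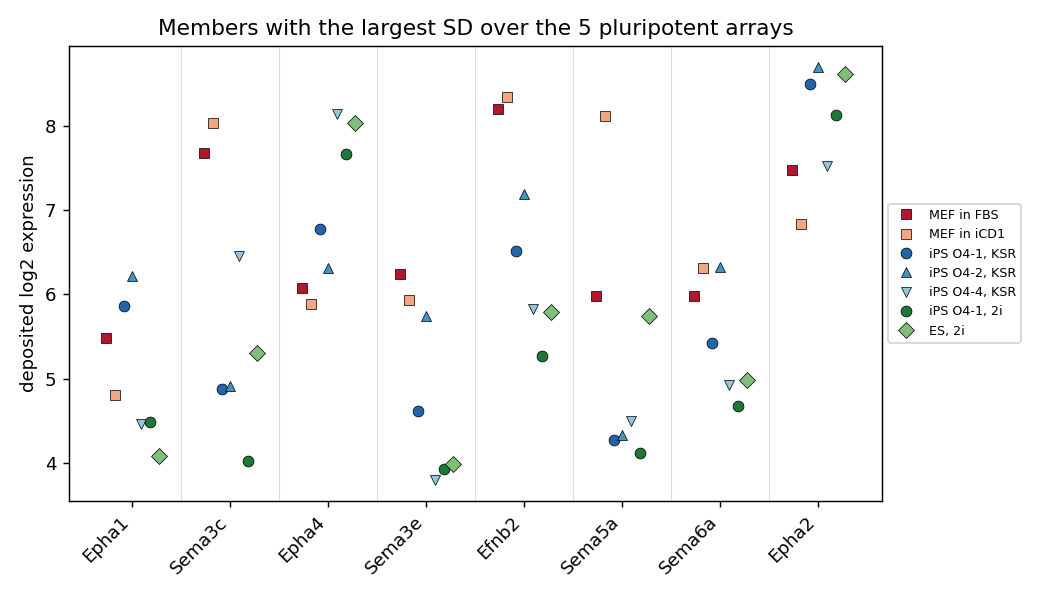
Deposited log2 expression of the 8 members with the largest SD over the 5 pluripotent arrays, with each point 1 array (squares MEFs, circles and triangles iPS lines, diamonds ES cells). For Epha1, Sema3e, Efnb2 and Sema6a line O4-2 is the highest pluripotent point, and for Epha4 line O4-4 (8.14) and the ES array (8.03) are the highest.

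Some members are neighbours in the genome by the order of the RefSeq gene table. Sema3d, Sema3a, Sema3e and Sema3c lie in 1 stretch of chromosome 5, and all 4 fell. Of 18 other protein-coding genes in that stretch 4 were tested, and 2 of these fell, beside 17.5% of all genes. Hgf, hepatocyte growth factor, fell by 1.99 ± 0.14 and Cacna2d1, a calcium channel subunit, fell by 2.37 ± 0.21 (limma adjusted p = 4.03e-05 and 0.000119). Efna1, Efna3 and Efna4 lie next to each other on chromosome 3, and of these Efna1 alone passed. Sema3b and Sema3f lie near each other on chromosome 9, where Sema3f fell and Sema3b did not pass. The 3 other genes tested there went different ways: Gnai2, a G protein subunit, fell by 1.21 ± 0.15, Slc38a3, an amino acid transporter, rose by 0.72 ± 0.20 (limma adjusted p = 0.000508 and 0.0247) and Gnat1 (0.30 ± 0.12) did not pass.

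Partners and effectors of both systems were read from lists. Of 30 semaphorin coreceptors and effectors 16 fell and 4 rose, beside 17.5% and 15.6% of all genes. Their median difference was -0.79. Of the cytosolic CRMP proteins downstream of Sema3a, Dpysl3 fell by 3.84 ± 0.30 and Dpysl2 fell by 3.43 ± 0.26 (limma adjusted p = 6.98e-05 and 5.61e-05). Farp1, a guanine exchange factor related to a plexin A partner, fell by 2.81 ± 0.27, and Mical2, of a family of actin-oxidising enzymes, fell by 2.55 ± 0.16. Met, the Hgf receptor that pairs with class B plexins, fell by 2.36 ± 0.20 and Itgb1, the beta chain of integrins bound by Sema7a, fell by 2.24 ± 0.14. Those that rose were Dpysl5 (1.06 ± 0.20), Plxdc1 (0.98 ± 0.20), Mical3 (0.60 ± 0.17) and Cntn2 (0.39 ± 0.12). Dpysl5 is of the same family as Dpysl2 and Dpysl3. Crmp1 (-0.46 ± 0.62) and Dpysl4 (-0.26 ± 0.11), the other genes of this family on the list, did not pass.

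Of 25 Eph and ephrin effectors 11 fell and 1 rose, beside 17.5% and 15.6% of all genes. Their median difference was -0.32. Adam10, the protease that cleaves ephrins, fell by 2.16 ± 0.23 (limma adjusted p = 0.00027), Pdzrn3 fell by 2.08 ± 0.20 and Sdcbp, the PDZ protein syntenin that binds ephrin-B tails, fell by 2.06 ± 0.19. Chn1, the Rac inhibitor alpha-chimaerin that acts below Epha4, rose by 0.63 ± 0.19 (limma adjusted p = 0.0319). The adaptor Nck1 (-0.19 ± 0.10) and the kinase Src (0.07 ± 0.12) were among the 13 that did not pass.

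Netrin, Slit and RGM genes, the other guidance families, were read in the same way. Of 22 genes 12 fell and 0 rose, beside 17.5% and 15.6% of all genes. Their median difference was -0.76. Flrt2, a membrane ligand of Unc5 receptors, fell by 3.72 ± 0.43 and Unc5c, a netrin receptor, fell by 3.26 ± 0.11 (limma adjusted p = 0.000377 and 4.68e-06). Slit2 fell by 2.16 ± 0.40 and its receptor Robo2 fell by 2.15 ± 0.47. Ntn1 (-0.07 ± 0.17) and its receptor Dcc (0.00 ± 0.16) did not pass.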

How the data were processed

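Each array's values were deposited on the log2 scale, 1 per probe set. The authors used RMA and Partek to make them, as the submitters' processing notes list. No version or annotation build is given in the sources used here. No further normalization was applied. Of 28853 probe sets, 21789 had 1 symbol and gave 19938 genes. Depth does not apply to arrays; their number limits precision.

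Tests used limma 3.58.1 in R 4.3.3 (two-sided, Benjamini-Hochberg over all genes, adjusted p under 0.05). The fits were also run on simulated data with independent noise. Those data held no line or medium differences within a group, so the run says nothing about such differences. The 2-group fit had 5 residual degrees of freedom, to which the prior added 3.09. The 5-group fit had 2, to which the prior added 1.62, so groups of 1 array were assumed to vary like the KSR lines. Errors after differences are limma standard errors. Nothing says that cultures were separate, so p-values measure only the spread between these arrays. No array held the values of another, and the labels give no batch. Alternatives were quantile normalization, a filter on low values, means over probe sets, a variance trend, other groupings and leaving out arrays. A cell line block could not be estimated (6 lines on 7 arrays), and averaging both O4-1 arrays was chosen after seeing the data.

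All 7 values are given for the 8 called members with the largest difference each way and those 2-fold apart between MEF arrays. Members, lists and motifs were chosen with earlier results of these data known.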

Additional observations from a re-analysis of the deposited data

Results flagged for a closer look

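Among the 5 pluripotent arrays, 1 array stood apart from the other 4 by Dixon's test (critical ratio 0.71) for 4 of the 52 members. Chance flags about 1 in 20 such groups. Sema5a read 5.75 in ES cells, where the next highest array read 4.50. Ephb1 read 3.82 in ES cells, where the next lowest read 4.15. Epha3 read 3.12 and Sema3d 2.96 in iPS cells in 2i, where the next lowest read 3.66 and 3.43. Without iPS cells in 2i, Epha3 and Sema3d were both still lower in pluripotent than in MEF arrays (limma, adjusted p under 0.05).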

How the results depend on the processing

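No paired analysis was possible because the groups in KSR and 2i share only line O4-1. For pluripotent against MEF arrays, leaving out each array gave 18 to 26 members lower and 3 to 5 higher, beside 26 and 4, and the other alternatives gave 18 to 26 and 3 to 6. The filter on low values kept 29 members, of which 18 were lower and 4 higher. Of the 9969 genes it kept, 5523 passed in either direction. Of the 30 called members, 23 kept the call in the 5-group fit, 20 without the MEF array in iCD1 and 28 with both O4-1 arrays as 1, and no difference reversed under any alternative run. For KSR lines against MEFs, leaving out each array gave 0 to 17 members lower, beside 21, and 0 to 3 higher, beside 3. The count was 0 without O4-1 or O4-2 and 13 lower without O4-4, with 2 lines left each time, and the cause was not tested. Between MEF media, the filter on low values left 1 member at least 2-fold higher in iCD1, beside 2, and at 1.5-fold there were 6 higher and 3 lower, beside 2 and 1. In both comparisons of a 2i array with the KSR lines, limma called 0 members under all alternatives run. Quantile normalization shifted the median of each array by at most 0.064 more or less than the mean shift over the arrays. The line block was not run. With no signal over background given, low members such as Epha5 and Epha6 cannot be told from background.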
